A study of Oryza sativa with 12 samples.

Results

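BiP (binding immunoglobulin protein) is the heat shock protein 70 (HSP70) of the endoplasmic reticulum (ER), and the rice genes that encode it are a small family. The 5 members described here are the loci named *BiP1* to *BiP5*: *BiP1* (LOC_Os02g02410, chromosome 2), *BiP2* (LOC_Os03g50250, chromosome 3), *BiP3* (LOC_Os05g30480, chromosome 5), *BiP4* (LOC_Os05g35400, chromosome 5) and *BiP5* (LOC_Os08g09770, chromosome 8), where the chromosome is read from the locus name. They were chosen by name as the whole family, and all 5 were among the 55986 genes of the expression table. In RefSeq's annotation (assembly ASM3414082v1), *BiP1* to *BiP4* were each matched by name on the same chromosome, *BiP1*, *BiP2* and *BiP4* as protein-coding genes and *BiP3* as a transcribed pseudogene. *BiP5* was not matched.

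Transcript levels were measured by RNA-Seq in whole seedlings of the *japonica* cultivar Nipponbare, 8 days after germination. There were 4 groups of 3 libraries: *ntl3-1* seedlings held at 45 ºC for 3 h, *ntl3-1* seedlings kept at 29 ºC, wild-type (WT) seedlings held at 45 ºC for 3 h, and WT seedlings kept at 29 ºC. The *ntl3-1* plants carry a CRISPR-Cas9 edit in Os*NTL3* (LOC_Os01g15640), the gene of a membrane-associated NAC transcription factor, and are predicted to make a prematurely truncated protein. They are 1 edited line, so an effect of Os*NTL3* and any other difference of this line from WT cannot be told apart. The labels do not say how many seedlings went into a library or whether the 3 libraries of a group came from separate cultures, so the p-values below measure only the spread between these libraries.

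BiP works in the ER lumen, where it binds exposed hydrophobic stretches of newly made proteins and releases them with the use of ATP, aided by J-domain partner proteins. When unfolded proteins accumulate there, sensors in the ER membrane send a signal to the nucleus, known as the unfolded protein response, and *BiP* genes are among its best known targets. In rice, OsbZIP74 (whose mRNA is spliced by the sensor kinase OsIRE1), OsbZIP17 and OsbZIP16 are the transcription factors linked to this response. The comparisons below ask how much each *BiP* gene was induced by heat stress, and whether that induction differed in the Os*NTL3* mutant.

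The levels are FPKM, that is, sequenced fragments scaled to the length of the transcript and to the depth of the library, so that levels of different genes can be set side by side. The number of reads behind the table is not given in the sources used here. From the smallest values in each library, 1 read was worth 1.69 to 1.86 times as much FPKM in the *ntl3-1* 45 ºC libraries as in replicate 1 of WT at 29 ºC, 1.71 to 2.04 times as much in the WT 45 ºC libraries, and 0.880 to 1.08 times as much in the other 29 ºC libraries. A gene at a given FPKM therefore rested on fewer reads at 45 ºC than at 29 ºC. The sum of FPKM over all genes moved with temperature in the same way, at 1194528 to 1355865 in *ntl3-1* and 1153023 to 1369236 in WT at 45 ºC, against 640517 to 698971 in *ntl3-1* and 610880 to 679693 in WT at 29 ºC. Replicates of a group correlated at r = 0.967 to 0.980 across genes, and no pair of libraries was identical. Os*NTL3* itself averaged 30.4 ± 3.2 FPKM in *ntl3-1* and 70.4 ± 15.4 FPKM in WT at 45 ºC (SD, n = 3 each). An edit that truncates the protein leaves transcript to be counted, so this level neither passes nor fails the genotype labels.

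*BiP1* was by far the most abundant member and was strongly up-regulated by heat in both genotypes. In *ntl3-1* it stood at 939, 920 and 976 FPKM at 45 ºC, against 122, 101 and 97.0 FPKM at 29 ºC. In WT it stood at 750, 926 and 1234 FPKM at 45 ºC, against 106, 112 and 100.1 FPKM at 29 ºC. The 45 ºC libraries were all above the 29 ºC libraries, and the group means differed 8.86-fold in *ntl3-1* and 9.13-fold in WT. The study took *BiP1* from these same expression data for further measurement, so its values here are not independent evidence of its induction. On the log2(FPKM + 0.1) scale the heat response was 3.15 ± 0.17 (SE) in *ntl3-1* and 3.16 ± 0.17 in WT, with adjusted p = 1.66e-07 and 1.43e-07 (limma, Benjamini-Hochberg over 31681 genes). The size depends on the scaling: with the same FPKM sum in every library the response was 2.24 in *ntl3-1* and 2.19 in WT, and with quantile normalization it was 2.25 in *ntl3-1* and 2.20 in WT, still called in both. Ranked by FPKM within a library, *BiP1* was between the 144th and 169th most abundant gene in *ntl3-1* at 45 ºC and between the 653rd and 923rd at 29 ºC. In WT it was between the 130th and 178th at 45 ºC and between the 662nd and 862nd at 29 ºC.

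The replicates of *BiP1* were much closer to each other in the heated mutant than in the heated WT. The coefficient of variation was 2.99% in *ntl3-1* and 25.3% in WT at 45 ºC. As an SD of log2 values, *BiP1* varied by 0.04 in *ntl3-1* at 45 ºC, where the median over 20822 genes was 0.18, and by 0.36 in WT at 45 ºC, where the median was 0.23. At 29 ºC it varied by 0.18 in *ntl3-1* (median over genes 0.13) and by 0.08 in WT (median 0.14). The closer replicates in heated *ntl3-1* were not particular to *BiP1*. Most of the HSP70 and ER stress pathway genes described below also had a lower coefficient there than in heated WT. It was 1.37% against 34.5% for LOC_Os01g08560 and 11.4% against 22.5% for *PDIL2-3*. LOC_Os11g47760 (28.5% against 16.8%) and the pair of calreticulin genes went the other way. With 3 libraries a group, the difference in spread was not tested.

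*BiP2* changed the most on the log2 scale, being close to undetected at 29 ºC and clearly expressed at 45 ºC. In *ntl3-1* it stood at 37.9, 38.4 and 24.3 FPKM at 45 ºC, against 0.0694, 0.0175 and 0 FPKM at 29 ºC. In WT it stood at 36.6, 52.3 and 38.5 FPKM at 45 ºC, against 0.0359, 0.0315 and 0.0348 FPKM at 29 ºC. The 29 ºC values were so low that they corresponded to an estimated 4, 1 and 0 reads in *ntl3-1* and 2 reads in each WT library. The heat response was 8.03 ± 0.25 in *ntl3-1* (SE, adjusted p = 4.73e-09, limma) and 8.29 ± 0.25 in WT (adjusted p = 3.25e-09). Against so low a baseline its size depends on the constant added before the logarithm: with 1 FPKM it was 5.04 in *ntl3-1* and 5.38 in WT, and with 0.01 FPKM it was 10.20 in *ntl3-1* and 9.90 in WT. The study called *BiP2* and *BiP4* highly up-regulated by heat from these same expression data. Their values here are therefore not independent evidence of their induction.

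*BiP4* was also higher at 45 ºC, at a much lower level. In *ntl3-1* it stood at 1.46, 0.639 and 1.10 FPKM at 45 ºC, against 0, 0 and 0.0168 FPKM at 29 ºC. In WT it stood at 2.85, 2.22 and 1.84 FPKM at 45 ºC, against 0, 0 and 0.0451 FPKM at 29 ºC. At 29 ºC it was thus above 0 in 1 library of each genotype. A gene had to be above 0 in at least 3 libraries to be tested, so *BiP4*, with 6 such libraries at 45 ºC and 2 at 29 ºC, entered only through the heated libraries and its call is a description. The response was 3.40 ± 0.30 in *ntl3-1* (SE, adjusted p = 6.29e-06, limma) and 4.39 ± 0.30 in WT (adjusted p = 9.53e-07), and it too moved with the added constant, to 1.02 in *ntl3-1* and 1.69 in WT with 1 FPKM and to 6.20 in *ntl3-1* and 7.01 in WT with 0.01 FPKM.

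*BiP3* was detected in heated seedlings only, at a low level. It stood at 0.497, 0.417 and 0.211 FPKM in *ntl3-1* and at 0.165, 0.153 and 0.219 FPKM in WT at 45 ºC, and it was listed at 0 in all 6 libraries at 29 ºC. It entered the test only through its 6 libraries at 45 ºC and so had to be higher there, and no fold is given against groups at 0. The test called it higher at 45 ºC in *ntl3-1* (adjusted p = 1.85e-05, limma) and in WT (adjusted p = 0.000290). With 1 FPKM added it no longer reached the fold required of a call in either genotype.

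*BiP5* was barely detected. Heated *ntl3-1* libraries had 0.0623, 0.0302 and 0 FPKM, and unheated ones 0.0163, 0 and 0 FPKM. In WT it stood at 0.0620, 0.115 and 0.0688 FPKM at 45 ºC and was listed at 0 in all libraries at 29 ºC. These values correspond to at most an estimated 4 reads in a library. It was not called in *ntl3-1* (adjusted p = 0.228, limma), and in WT its adjusted p of 0.00295 came with a change under the fold required. Above 0 in 5 libraries at 45 ºC and 1 at 29 ºC, *BiP5* too entered the test only through heated libraries, so this is a description. With so few reads the values of the low members are uncertain. The members are paralogs, and RSEM, which the study used for quantification, can divide reads that fit more than 1 gene among those genes by estimate. How far this touched the low members was not tested. Their estimated reads lay close to whole numbers, with a largest gap of 0.08 over 20 values of *BiP2* to *BiP5* above 0 and up to 30 reads.

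**Figure D1:**
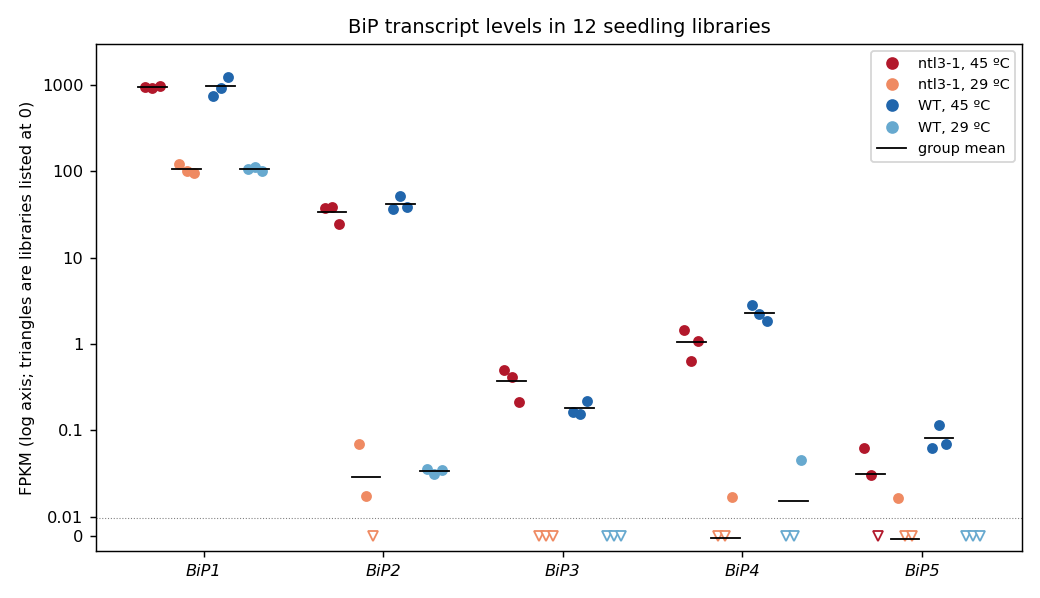
BiP transcript levels. FPKM of each *BiP* gene (log axis, with libraries listed at 0 drawn as triangles under the dotted line) in the 3 libraries of *ntl3-1* and WT at 45 ºC and 29 ºC, with group means as bars; *BiP1* has 750 to 1234 FPKM in the libraries at 45 ºC and 97.0 to 122 FPKM in those at 29 ºC, and *BiP2* to *BiP4* are at or close to 0 at 29 ºC.

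Taken by member, 4 of the 5 genes were called higher at 45 ºC in *ntl3-1* and 4 of 5 in WT (adjusted p of at most 0.05 and a log2 change of at least 1). Over all 31681 genes tested, 12.9% were called higher at 45 ºC in *ntl3-1* and 13.2% in WT. Since *BiP3*, *BiP4* and *BiP5* were tested only through their heated libraries and could come out only higher, the count over members is a description. No member was called lower, where 11.3% of all genes tested in *ntl3-1* and 11.8% in WT were. For *BiP3* to *BiP5* that follows from how they entered the test. For *BiP1* and *BiP2*, which were above 0 in 6 and 5 of the 6 libraries at 29 ºC, libraries at 45 ºC were all above those at 29 ºC in each genotype, where 27.9% of all genes tested in *ntl3-1* and 26.7% in WT had their libraries apart in that direction.

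The order of the members under heat was the same in all 6 heated libraries: *BiP1* above *BiP2*, then *BiP4*, *BiP3* and *BiP5*. Within each heated genotype the ranges of neighbours in this order did not overlap. *BiP1* was 24.0 to 40.1 times as high in FPKM as *BiP2* in *ntl3-1* and 17.7 to 32.0 times in WT. *BiP2* in turn was 22.2 to 60.0 times as high as *BiP4* in *ntl3-1* and 12.8 to 23.6 times in WT. At 29 ºC only *BiP1* stood far apart, and the other members were at most 0.0694 FPKM. In *ntl3-1* these overlapped, while in WT *BiP2* (0.0315 to 0.0359 FPKM) lay above *BiP3* and *BiP5*, which were listed at 0.

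Added over the family, *BiP* transcripts came to 980 ± 21.0 FPKM in heated *ntl3-1* seedlings and 107 ± 13.4 FPKM in unheated ones (SD over 3 libraries), a 9.18-fold difference. In WT the sums were 1015 ± 244 FPKM with heat and 106 ± 6.1 FPKM without it, a 9.55-fold difference. *BiP1* supplied 96.4 ± 0.9% of the sum in *ntl3-1* and 95.4 ± 1.3% in WT at 45 ºC. Nearly all of the remainder was *BiP2*, at 3.43 ± 0.87% in *ntl3-1* and 4.33 ± 1.19% in WT. At 29 ºC *BiP1* was over 99.9% of the family in each genotype. When every library was scaled to the same FPKM sum, the family fold was 4.87 in *ntl3-1* and 4.82 in WT, and the median gene above 1 FPKM in all libraries then moved by -0.88 and -0.93 on the log2 scale. In the values as deposited, that median was 0.02 in *ntl3-1* and 0.03 in WT, so the size of the family fold rests on which scaling is used.

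The second question was whether the heat response of the *BiP* genes differed in *ntl3-1*. No member's response was called different between *ntl3-1* and WT (0 of 5 at adjusted p of at most 0.05, limma, where 0.24% of all genes tested were called). At an unadjusted p under 0.05 there were 2 of 5, where 7.62% of all genes tested had one. For *BiP1* the response in *ntl3-1* minus that in WT was -0.01 on the log2 scale, with a 95% interval of -0.53 to 0.51. For *BiP2* it was -0.26, with an interval of -1.04 to 0.52. These intervals still hold differences of up to 0.53 for *BiP1* and about 1 for *BiP2*, so a smaller effect of the mutation was not detectable with these libraries.

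The members with an unadjusted p under 0.05 were the low ones, and they went in opposite directions. For *BiP4* the response in *ntl3-1* minus that in WT was -0.98 (95% interval -1.91 to -0.05, adjusted p = 0.618, limma). For *BiP3* it was 0.72 (95% interval 0.03 to 1.42, adjusted p = 0.632). Neither passed the test.

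Compared directly at 45 ºC, no member was called different in *ntl3-1* from WT (0 of 5, where 1.13% of all genes tested were called), and 3 of 5 had an unadjusted p under 0.05, where 14% of all genes tested had one. *BiP1* differed by -0.01 (95% interval -0.37 to 0.36, adjusted p = 1, limma) and *BiP2* by -0.35 (-0.90 to 0.20, adjusted p = 0.594). *BiP4* averaged 1.07 ± 0.41 FPKM in *ntl3-1* and 2.30 ± 0.51 FPKM in WT (SD, n = 3 each). Its 3 *ntl3-1* libraries were all below the 3 WT libraries, where 6.71% of all genes tested had their libraries apart in that direction. The difference was -1.09 on the log2 scale (95% interval -1.75 to -0.43) and did not pass the test (adjusted p = 0.122, limma). In reads, *BiP4* rested on an estimated 116 over the *ntl3-1* libraries and 242 over the WT libraries at 45 ºC.

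For *BiP3* the difference at 45 ºC was 0.72 (95% interval 0.23 to 1.21, adjusted p = 0.168, limma). It rested on an estimated 15, 13 and 7 reads in *ntl3-1* and 5, 5 and 6 reads in WT, and its lowest *ntl3-1* library lay below its highest WT library. Without replicate 3 of *ntl3-1* at 45 ºC the difference was 1.00 with adjusted p = 0.0181 (limma) and was called. No other member was called in this comparison under any alternative tried. Over the 21 alternatives for *BiP3* the adjusted p lay between 0.0181 and 0.539. The highest came from a separate fit of the heated groups, with an SE of 0.287 against 0.222 in the main fit. The main fit pooled its variance with the unheated libraries, in which *BiP3* was not detected. Its SE and p-value for *BiP3* may therefore be too small. *BiP5* differed by -0.49 (adjusted p = 0.267) and overlapped between the genotypes.

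**Figure D2:**
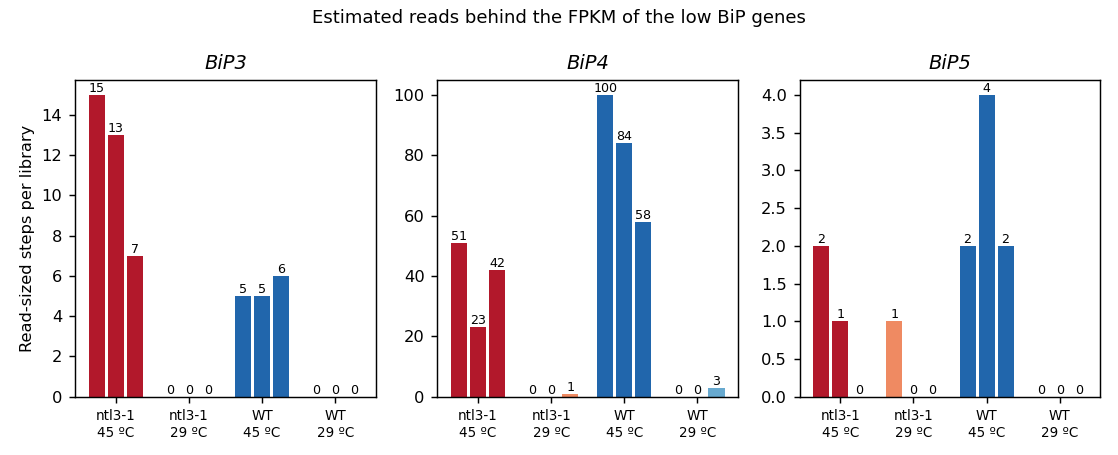
Reads behind the low members. Bars give the estimated number of reads (FPKM divided by the FPKM that 1 read was worth for that gene and library) of *BiP3*, *BiP4* and *BiP5* in each of the 3 libraries of *ntl3-1* and WT at 45 ºC and 29 ºC, with an axis of its own for each gene; *BiP4* has 51, 23 and 42 reads in *ntl3-1* and 100, 84 and 58 in WT at 45 ºC, while *BiP5* never exceeds 4.

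At 29 ºC no member was called different in *ntl3-1* from WT (0 of 5 by limma, where 1.99% of all genes tested were called, and 0 of 5 at an unadjusted p under 0.05, where 13.6% of all genes tested had one). *BiP1* averaged 107 ± 13.3 FPKM in *ntl3-1* and 106 ± 6.1 FPKM in WT (SD, n = 3 each), a log2 difference of 0.00 with a 95% interval of -0.37 to 0.37. The other members were too low at 29 ºC for a difference between the genotypes to be detectable.

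Genes of the ER stress pathway rose together with *BiP1*. Of a list of 7 (Os*NTL3*, Os*bZIP74*, Os*bZIP17*, Os*bZIP16*, *PDIL2-3* and a pair of calreticulin genes), all 7 were called higher at 45 ºC in each genotype, with a median log2 response of 2.32 (range 1.26 to 3.90) in *ntl3-1* and 2.55 (1.78 to 4.34) in WT, while the median over all genes tested was -0.04 in each genotype. The study took Os*bZIP74*, *PDIL2-3* and the calreticulin genes from these same expression data for further measurement, so the direction of this list is not independent evidence. The quantitative RT-PCR outcome given above for *BiP1* was reported for these genes too. Os*bZIP16* had the largest response of the 7, with means of 188 ± 26 FPKM in heated and 12.5 ± 1.4 FPKM in unheated *ntl3-1* seedlings, and of 203 ± 57 FPKM in heated and 9.68 ± 0.33 FPKM in unheated WT seedlings (SD, n = 3 each). Os*bZIP17* responded by 2.32 in *ntl3-1* and 2.55 in WT. Of the ER folding proteins, *PDIL2-3*, a protein disulfide isomerase, responded by 1.98 in *ntl3-1* and 1.99 in WT. The calreticulin genes, whose products are lectin chaperones that bind calcium, responded by 3.61 in *ntl3-1* and 3.78 in WT for LOC_Os03g61670 and by 1.60 in *ntl3-1* and 1.98 in WT for LOC_Os01g67054.

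Among these 7 genes, the 1 whose response was called different between the genotypes was Os*bZIP74*. This gene was among those the study took from these data, so the call is not independent evidence. It averaged 122 ± 7.0 FPKM in *ntl3-1* and 208 ± 32.9 FPKM in WT at 45 ºC, and 18.1 ± 0.3 FPKM in *ntl3-1* and 15.4 ± 0.8 FPKM in WT at 29 ºC (SD, n = 3 each). Its response was smaller in *ntl3-1* by -0.98 on the log2 scale (adjusted p = 0.0351, limma). In the same libraries the response of *BiP1* differed by -0.01, with the interval given above. Whether the response of Os*bZIP74* and that of *BiP1* were affected unequally by genotype was not tested. At 45 ºC Os*NTL3* was called lower in *ntl3-1* (-1.19, adjusted p = 0.00439, limma). Os*bZIP74* differed by -0.76 (95% interval -0.99 to -0.52, adjusted p = 0.00472, limma), which was under the fold required of a call. The rest of the 7 were not called.

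**Figure D3:**
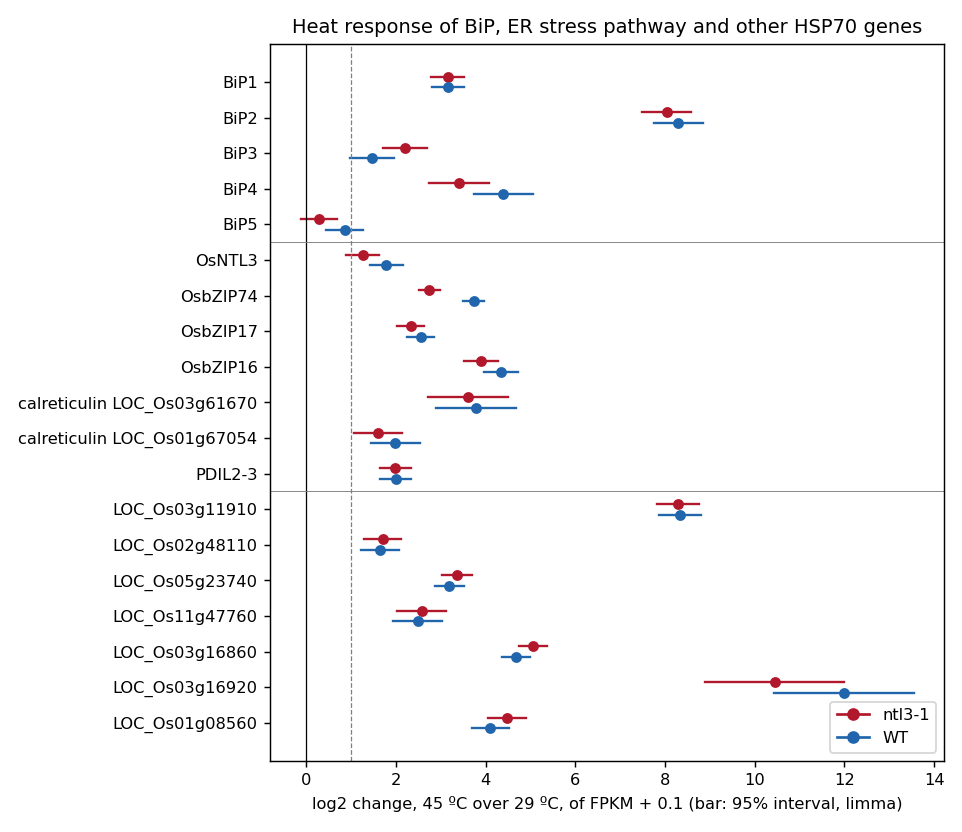
Heat responses of *BiP* genes and their neighbours. Points are log2 changes of FPKM + 0.1 at 45 ºC over 29 ºC in *ntl3-1* and WT with 95% intervals (limma, 3 libraries a group) for the 5 *BiP* genes, the 7 ER stress pathway genes and 7 other HSP70 genes, and the dashed line marks a log2 change of 1. *BiP1* lies at 3.15 in *ntl3-1* and 3.16 in WT, and *BiP2* near 8. The points of *BiP2* to *BiP5*, which were at or close to 0 at 29 ºC, depend on the added constant.

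The HSP70 family also works outside the ER, and 7 further DnaK-family (HSP70) loci were set beside *BiP*. They were taken from the study's list of genes up-regulated by heat in these same libraries, so that they were higher follows from the choice. All 7 were called higher at 45 ºC in each genotype, with a median response of 4.47 (range 1.70 to 10.45) in *ntl3-1* and 4.10 (1.64 to 11.99) in WT, and 0 of 7 had a response called different between the genotypes. In FPKM at 45 ºC, *BiP1* (945 ± 28.3 in *ntl3-1* and 970 ± 245 in WT) was close to LOC_Os05g23740 (978 ± 142 in *ntl3-1* and 860 ± 151 in WT, SD, n = 3 each), and the ranges of these genes overlapped in each genotype. LOC_Os03g16920, the highest of the 7 at 45 ºC, reached 4497 ± 454 FPKM in *ntl3-1* and 4652 ± 1404 FPKM in WT, with 5.74 ± 7.43 FPKM in *ntl3-1* and 1.01 ± 0.03 FPKM in WT at 29 ºC (SD, n = 3 each).

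The genes whose pattern over the 12 libraries was most like that of *BiP1* were LOC_Os04g32950, LOC_Os09g14670 and LOC_Os02g50210, for which no name is given in the sources used here. Likeness was the root mean square difference of log2(FPKM + 0.1) after centring each gene, and it was 0.11, 0.12 and 0.16 for these genes, out of 20821 compared. LOC_Os04g32950 averaged 1111 FPKM in *ntl3-1* and 1218 FPKM in WT at 45 ºC, against 133 FPKM in *ntl3-1* and 130 FPKM in WT at 29 ºC. Its libraries of WT at 45 ºC stood at 986, 992 and 1675 FPKM, and replicate 3 was the highest there, as it was for *BiP1*.

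For *BiP2* the nearest genes were LOC_Os03g11910, LOC_Os01g12460 and LOC_Os06g14240, with differences of 0.32, 0.33 and 0.34. LOC_Os03g11910 is 1 of the 7 HSP70 loci above and averaged 655 FPKM in *ntl3-1* and 605 FPKM in WT at 45 ºC, against 2.08 FPKM in *ntl3-1* and 1.76 FPKM in WT at 29 ºC. LOC_Os06g14240, of the small heat shock protein (alpha-crystallin) family, averaged 3196 FPKM in *ntl3-1* and 3118 FPKM in WT at 45 ºC, against 8.58 FPKM in *ntl3-1* and 10.7 FPKM in WT at 29 ºC. These likenesses are descriptions over libraries that share treatment, and no test was made of them.

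**Figure D4:**
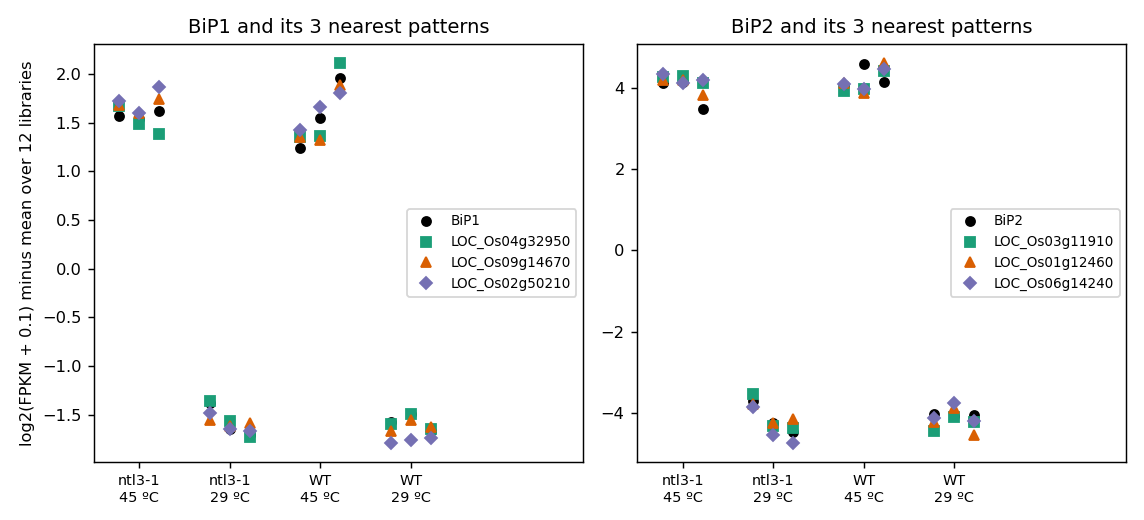
Nearest patterns to *BiP1* and *BiP2*. Points are log2(FPKM + 0.1) minus the gene's mean over the 12 libraries, for each member (black circles) and its 3 nearest genes (coloured), in the 3 libraries of *ntl3-1* and WT at 45 ºC and 29 ºC; *BiP1* and its nearest genes part by about 3 log2 units between temperatures, and *BiP2* and its nearest genes by about 8.

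The seedling label was checked with 3 shoot genes (Rubisco small subunit and chlorophyll a/b-binding protein) and 3 root genes (Os*Lsi1*, Os*Lsi2* and *RCc3*), and all 6 were above 0 in all 12 libraries. The summed shoot markers were 16680 to 23639 FPKM in *ntl3-1* and 10808 to 17173 FPKM in WT at 45 ºC, against 19192 to 23988 FPKM in *ntl3-1* and 12752 to 16256 FPKM in WT at 29 ºC. The summed root markers were 90.5 to 120 FPKM in *ntl3-1* and 89.0 to 194 FPKM in WT at 45 ºC, against 432 to 664 FPKM in *ntl3-1* and 588 to 752 FPKM in WT at 29 ºC, and each of the 3 was called lower at 45 ºC in each genotype. Their part in the *BiP* responses was not tested. In whole seedlings, fewer root cells and less of these transcripts per root cell cannot be told apart.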

How the data were processed

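Seedlings of *ntl3-1* and WT (3 libraries per group, 12 in all) were profiled by RNA-Seq with TruSeq libraries on an Illumina HiSeq instrument, whose model differs between the sources. Per the study's methods, reads were trimmed with SeqPrep and Sickle, aligned to the MSU rice genome with TopHat and quantified with RSEM, and the authors deposited 1 table of FPKM. The submitters' processing notes instead name Bowtie 0.12.2 and mm8, a mouse build; locus names in the table are rice loci. Temperatures, duration and the allele were taken from the study's methods. Whole counts were not used here, so count-based tests (edgeR in the study) could not be run.

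Groups came from the sample titles. FPKM were transformed as log2(FPKM + 0.1), genes above 0 in at least 3 libraries were kept (31681 of 55986), and limma 3.58.1 in R 4.3.3 fitted 1 mean per group over 12 libraries with a mean-variance trend. Contrasts were heat in each genotype, *ntl3-1* against WT at each temperature, and their interaction. P-values were adjusted by Benjamini-Hochberg over all genes tested; a call needed adjusted p of at most 0.05 and a log2 change of at least 1 in size (for the interaction, adjusted p alone).

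Estimated reads were obtained after the values were seen, from the commonest step between low FPKM values, by dividing each value by the smallest unit that made a gene's values whole within 0.15; values above 30 steps were not checked for wholeness. These are estimates, since an exact depth is not given.

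The named genes were the 5 members, the pathway and HSP70 lists, markers, and the 3 genes nearest in pattern to each member with a mean of at least 1 FPKM. The members and lists were chosen with earlier results of these data known. Alternatives were other added constants, filters and rescalings, no trend, separate fits, a replicate block and leaving out each library.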

Additional observations from a re-analysis of the deposited data

How the results depend on the processing

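The heat calls of the *BiP* genes (4 of 5 in each genotype) ranged over 3 to 4 in *ntl3-1* and 3 to 5 in WT under the alternatives, since *BiP3* missed the fold with 1 FPKM added, the filter at 1 FPKM removed *BiP3* and *BiP5*, and *BiP5* passed in WT with 0.01 FPKM added. *BiP1* stayed called in all 22 alternatives, over 2.24 to 3.25 in *ntl3-1* and 2.19 to 3.33 in WT. The family fold with heat was 8.94 in *ntl3-1* with median-of-ratios rescaling, 4.92 in *ntl3-1* and 4.89 in WT with quantile normalization, and 4.87 in *ntl3-1* and 4.82 in WT with the same FPKM sum in every library. Leaving out 1 library gave 8.78 to 9.89 in *ntl3-1* and 8.33 to 10.6 in WT. The share of *BiP1* in *ntl3-1* at 45 ºC was 95.5% with quantile normalization. With the same FPKM sum, 1976 genes were called higher and 11937 lower with heat in *ntl3-1*, and 2064 higher and 12595 lower in WT, against 4082 and 3595 in *ntl3-1* and 4190 and 3730 in WT as deposited.

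Between the genotypes at 45 ºC the count was 0 throughout, except 1 (*BiP3*) without replicate 3 of *ntl3-1* at 45 ºC, so leaving out libraries gave 0 to 1. *BiP4* at 45 ºC had adjusted p between 0.0435 and 0.528 over its 22 alternatives, the lowest with 1 FPKM added, where its change of -0.68 was under the fold required. Small differences that were never called changed sign: *BiP2* in the interaction to 0.30 with 0.01 FPKM added, and *BiP1* in the interaction to 0.0075 (median-of-ratios), 0.041 (quantile) and 0.050 (same sum), at 45 ºC to 0.016 (median-of-ratios), and at 29 ºC to -0.11 (quantile) and -0.082 (same sum). Leaving out 1 library moved *BiP1* over -0.18 to 0.18 in the interaction, -0.18 to 0.18 at 45 ºC and -0.099 to 0.065 at 29 ºC, *BiP2* over -0.31 to 0.074 at 29 ºC, and *BiP4* over -0.19 to 0.075 at 29 ºC. The cause was not tested.

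Same-numbered libraries of different groups did not deviate together (r between -0.089 and 0.085 in 18 pairs, best with the own number in 4). The labels give them no more than a shared number. A shared culture with a small effect, or an effect on few genes, could be missed by this check. With the replicate block the counts were 4 and 4 of 5 for heat in *ntl3-1* and WT and 0 of 5 in the other comparisons, and the adjusted p of *BiP4* at 45 ºC was 0.144. The interaction has no separate fit. Depth limits *BiP3* and *BiP5* at 45 ºC and *BiP2* to *BiP5* at 29 ºC.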
